A study of Sus scrofa with 12 samples.

Results

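Collagen chain genes encode the polypeptides that wind in threes into the collagen triple helix. They were taken here as the rows of the gene count table whose pig Ensembl gene name is COL followed by a number, A and a number, and 38 of the 25880 genes listed met this rule. They comprised 11 fibrillar chains, 7 basement membrane chains and 20 chains of other kinds. The table of gene names holds 40 such names, and COL4A1 and COL19A1 had no row and were not analysed here. The 38 genes were measured by RNA sequencing in Semimembranosus muscle, a large muscle of the ham, of 12 Italian Large White pigs. The labels describe 6 pigs as high and 6 as low in intramuscular fat (IMF), aged 229 to 249 days and weighing 150 to 160 kg, all kept in 1 environment on a common diet. Pigs 1 to 6 formed the high IMF group and pigs 7 to 12 the low IMF group, and each pig gave 1 library. The libraries are of whole muscle, so that fewer cells of a type and less RNA per cell cannot be told apart.

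Fibrillar collagens, of which types I and III are the most plentiful, build the cable-like fibrils of the endomysium, perimysium and tendon, and type V takes part in starting them. Type IV forms the sheet-like network of the basement membrane around every muscle fibre and capillary, where types XV and XVIII, the multiplexins, are also found. Type VI makes beaded filaments close to the basement membrane, and inherited faults in it cause muscle disease. Fibril-associated chains such as type XIV coat the fibrils. In muscle most collagen is made by fibroblast-like cells of the interstitium.

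Libraries held between 131048805 and 178013997 counts, and their most abundant gene took 9.71% to 16.7% of them. In 6 pigs, 2 with high and 4 with low IMF, counts of Y chromosome genes went against the labelled sex, and whether pigs were exchanged between the IMF groups cannot be told from these counts. Class medians are therefore also given without these 6 pigs. So is each named fold change of a collagen chain that this moved by more than 1.5 times. Genes outside the collagens have no such value here. The pigs left are 1, 2, 4 and 6 of the high and 11 and 12 of the low IMF group. The 6 adipocyte markers summed to 260.9 to 375.4 in the high (median 337.9) and 138.2 to 540.7 in the low IMF group (median 362.3), in counts per 1000000 counts (CPM, by TMM), so the groups overlapped and the high IMF group was not the higher. Among cell markers, the 3 muscle fibre genes with a row (ACTA1, CKM and DES) summed to 24853 to 50868 CPM, and MYH1, MYH2, MYH7 and TTN carried no named row. The 7 fibro-adipogenic markers all had counts, as did all named rows of the adipocyte, endothelial, smooth muscle, tendon, Schwann cell and macrophage lists, and MATN1 of cartilage was the single marker listed at 0. Lanes held pairs of libraries, but the labels do not say which.

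The 2 chains of type I collagen come first because their levels had the highest correlation across pigs of the pairs tested. The 250 bases before the annotated start of each gene, from the RefSeq annotation of Sscrofa11.1 and on the gene's own strand, are shown with CCAAT or its reverse complement ATTGG in capitals, and end at the base before the start. COL1A1 lies on chromosome 12 on the minus strand (chr12:26397181-26397430) and COL1A2 on chromosome 9 on the plus strand (chr9:74174234-74174483).
COL1A1: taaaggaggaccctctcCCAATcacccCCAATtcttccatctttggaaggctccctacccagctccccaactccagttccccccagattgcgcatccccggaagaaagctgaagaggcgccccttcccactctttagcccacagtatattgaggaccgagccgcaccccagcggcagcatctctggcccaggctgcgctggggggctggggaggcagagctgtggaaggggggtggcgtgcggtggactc
COL1A2: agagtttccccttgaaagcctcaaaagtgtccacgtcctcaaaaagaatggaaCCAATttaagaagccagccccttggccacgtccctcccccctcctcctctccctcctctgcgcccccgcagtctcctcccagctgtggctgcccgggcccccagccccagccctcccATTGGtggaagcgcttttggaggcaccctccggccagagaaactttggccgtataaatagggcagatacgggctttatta
CCAAT on either strand was present in COL1A1, where a pair of matches began 233 and 223 bases before the start, and in COL1A2, at 197 and 80 bases. COL1A2 also held TATAAA, which began 29 bases before the start. The GC content of these windows was 62.8% and 58.8%, in the same order. Over the 19545 windows of this length before annotated RefSeq gene starts, 31.9% held CCAAT, 9.77% TATAAA and 45.9% GGGCGG on either strand. The matches shown overlap no other motif searched. Whether an annotated start is where transcription begins was not tested. Of the 36 collagen chains with such a window, 15 held CCAAT, 8 TATAAA and 18 GGGCGG. These matches are a description of letters in a window.

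Collagen chains took between 0.212% and 0.525% of all counts in a pig, with a median of 0.341%. Fibrillar chains held 64.3 ± 4.49% of the collagen counts (SD, n = 12), the other chains 29.7 ± 3.78% and the basement membrane chains 5.99 ± 0.953%. COL3A1 alone held 38.6 ± 4.03%. On the scale of CPM per kilobase of exon, which corrects for transcript length, fibrillar chains summed to 450.4 ± 110.2 (SD, n = 12), other chains to 118.8 ± 14.2 and basement membrane chains to 36.9 ± 6.01. The fibrillar class was thus the largest on both scales as counted. COL4A1, the partner of COL4A2, had no row and COL6A2 was at 0 in every pig, so neither adds to either scale. COL6A1, without a RefSeq length, is missing from the sums per length. The shares of the basement membrane and other classes leave these chains out.

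Per kilobase, the order was led by COL3A1 with 287.7 ± 71.5 CPM per kilobase (SD, n = 12). COL1A2 followed with 90.5 ± 23.02 and COL14A1, a chain of the fibril surface, with 76.9 ± 8.66. COL1A1 had 37.2 ± 15.6 and COL6A3 29.3 ± 7.91. Neighbours in this order were not all apart. COL3A1 was above COL1A2 in 12 of 12 pigs and COL14A1 above COL1A1 in 12 of 12, whereas COL1A2 exceeded COL14A1 in 9 and COL1A1 exceeded COL6A3 in 10. COL15A1 with 24.6 ± 3.56 and COL5A2 with 21.04 ± 3.20 CPM per kilobase came next, above COL4A2 with 10.8 ± 3.29 and COL5A1 with 7.68 ± 2.66. COL5A2 was above COL4A2 and COL4A2 above COL5A1 in 12 of 12 pigs. COL1A1 and COL1A2 join in the same trimer, yet the per-kilobase ratio of COL1A1 to COL1A2 RNA had a median of 0.380 and ranged from 0.257 to 0.508 over the pigs.

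**Figure D1:**
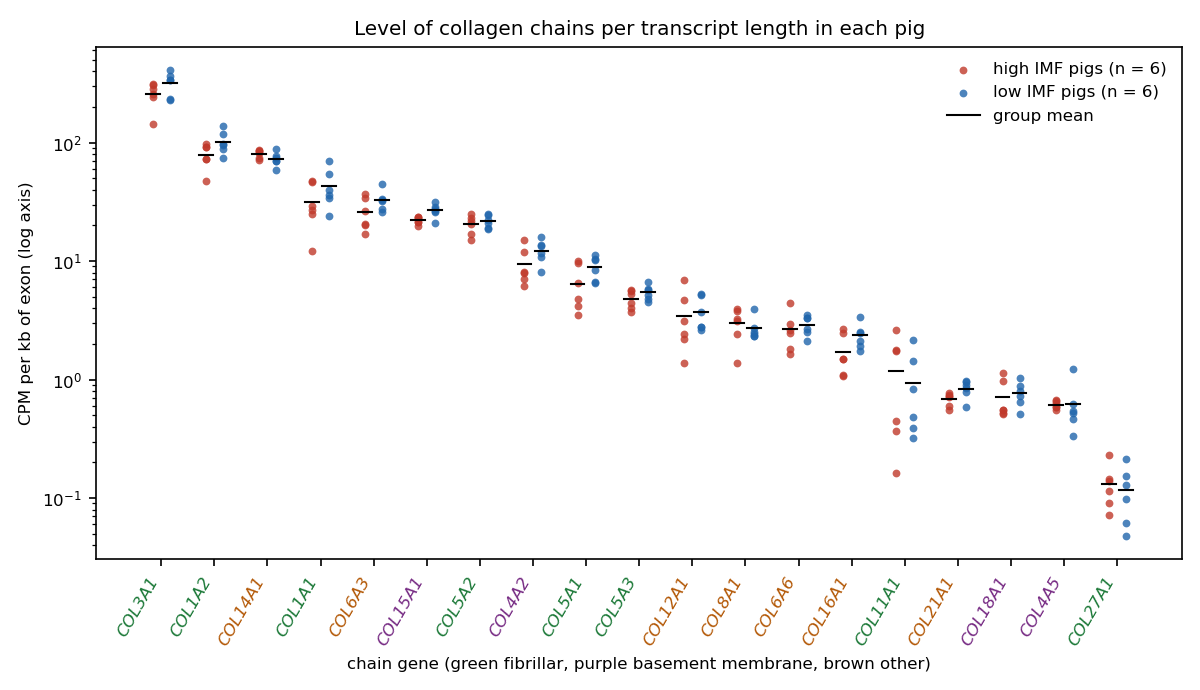
Level of the 19 collagen chains with a mean of at least 1 CPM and a RefSeq length, as CPM per kilobase of exon on a log axis, in 6 high IMF pigs (red) and 6 low IMF pigs (blue), with a line at each group mean. COL3A1 lies above every other chain, and the groups overlap for every chain shown.

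Below the leading chains, levels fell over several orders of magnitude. Of the 38 genes, 20 averaged at least 1 CPM and 31 passed the filter on low counts, a filter that removed COL2A1, COL6A2, COL9A1, COL9A3, COL11A2, COL22A1 and COL25A1. COL2A1, COL9A1, COL9A3 and COL11A2 are chains of cartilage collagens, and COL2A1 reached 0.433 CPM in pig 7, its highest pig. COL6A2, COL9A1 and COL9A3 were listed at 0 in every pig, and a count of 0 allows up to 3 counts, or 0.0169 to 0.0229 CPM, in these libraries. That limit covers counting error only. COL6A2 encodes a chain that type VI collagen needs beside COL6A1 and COL6A3, which were counted at 65.2 and 292.1 CPM on average. RefSeq places COL6A2 on a scaffold outside the chromosomes, and whether its reads were counted elsewhere was not tested.

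The spread between pigs differed widely among chains. The coefficient of variation over the 12 pigs was 11.3% for COL14A1, 14.5% for COL15A1 and 15.2% for COL5A2, and these were the 3 steadiest of the 20 chains with at least 1 CPM. COL1A1, at 41.9%, varied more than its partner COL1A2, at 25.4%. COL1A1 ranged from 75.1 CPM in pig 5 to 428.2 CPM in pig 12, a 5.70-fold range, and COL1A2 from 242.0 to 697.9 CPM in the same pigs, a 2.88-fold range. The ratio of COL1A1 to COL1A2 counts was accordingly lowest in pig 5 (0.310) and highest in pig 12 (0.614). COL11A1, a minor fibrillar chain best known from cartilage, had the widest range of these 20 chains, 16.03-fold, from 1.13 CPM in pig 6 to 18.2 CPM in pig 1.

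Levels of the chains varied together across pigs. Over the 190 pairs of these 20 chains, the median Pearson r of log2 CPM was 0.417, and 22.6% of pairs had r of at least 0.7. Over all pairs of the 10982 genes at that level the median was 0 and 1.82% of pairs reached 0.7. Chains share libraries and pairs share chains, so these values are a description. Within classes the median was 0.397 over 28 fibrillar pairs, 0.203 over 6 basement membrane pairs and 0.490 over 28 pairs of other chains. Between classes it was 0.423 from fibrillar to basement membrane chains, 0.487 from fibrillar to other chains and 0.304 from basement membrane to other chains. By these medians, chains of a class were not visibly closer to each other than to chains of the other classes, and no test was made of this. The fibrillar median includes the pairs with COL11A1, all negative, from -0.59 with COL5A2 to -0.07 with COL5A3. It therefore does not settle whether the other fibrillar chains were closer to each other.

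**Figure D2:**
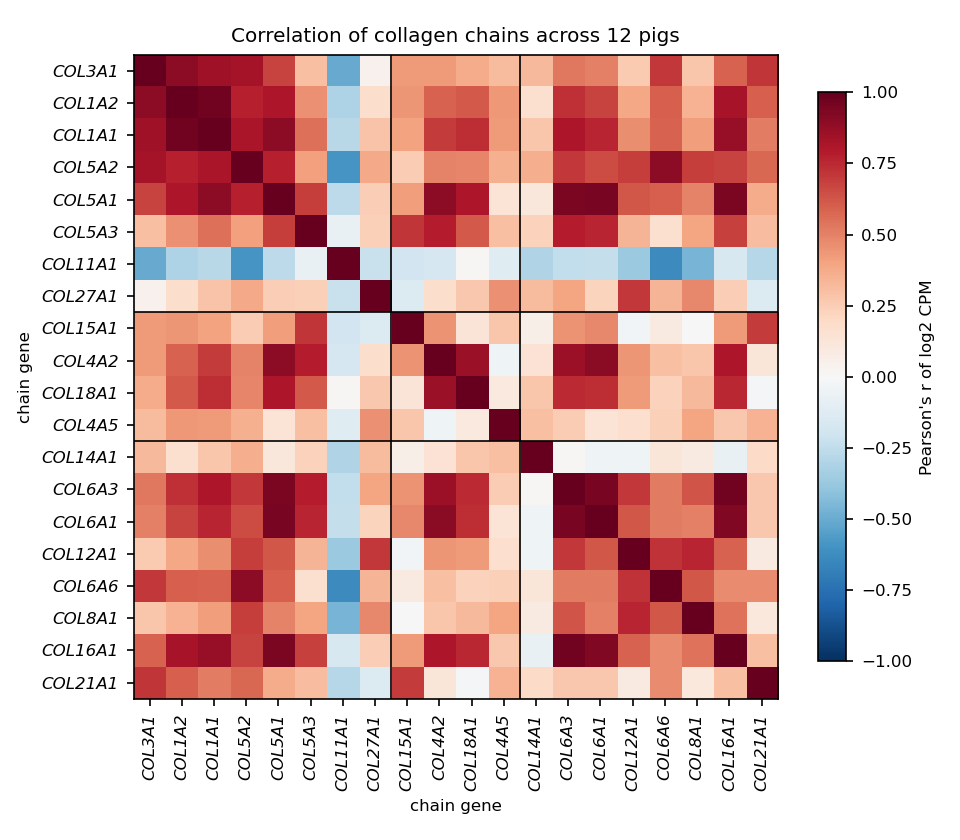
Pearson's r of log2 CPM over 12 pigs for the 20 collagen chains with a mean of at least 1 CPM, ordered by class (lines separate fibrillar, basement membrane and other chains) and level. COL5A1, COL6A1, COL6A3 and COL16A1 form the darkest block across class borders, and the row of COL11A1 is blue against most chains.

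Of the pairs tested, those of type I and type VI had the highest r. COL1A1 and COL1A2 had r = 0.97 (rho = 0.94) and COL6A1 and COL6A3 r = 0.95 (rho = 0.90) over 12 pigs, with an adjusted permutation p of 6e-05 for each r, from the smallest p that the resamples can give (1e-05), and of 0.00024 and 0.00072 for rho, over the 12 pairs tested. Without the 2 pigs farthest from the median of the first gene these pairs kept r = 0.89 and r = 0.92. COL1A1 and COL5A1, which share a fibril, had r = 0.89 (rho = 0.87, adjusted permutation p = 0.0002 for r and 0.00216 for rho) and r = 0.83 without pigs 5 and 12. These 3 pairs also held within each group, with r from 0.82 to 0.996.

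By r, 8 of the 12 pairs passed the adjusted threshold, with unadjusted permutation p from 1e-05 to 0.00938, and several of them leaned on a few animals. COL1A1 and COL3A1 had r = 0.85 (rho = 0.80, adjusted permutation p = 0.00282 for r and 0.00677 for rho), and without pigs 5 and 12 r was 0.62 (permutation p = 0.0597). COL5A1 and COL5A2, chains of the same trimer, had r = 0.78 (rho = 0.70, adjusted permutation p = 0.00598 for r and 0.0236 for rho), which fell to 0.44 without pigs 3 and 5. The X-linked neighbours COL4A5 and COL4A6 had r = 0.85 (adjusted permutation p = 0.0134) but rho = 0.42 (adjusted permutation p = 0.211). The r of this pair was 0.72 without pig 12, 0.75 without pig 10 (adjusted permutation p = 0.057 and 0.0626) and 0.04 without both, so that the relation rests on these pigs. Across classes, COL1A1 and COL6A1 had r = 0.76 (rho = 0.74, adjusted permutation p = 0.00598 for r and 0.0161 for rho) and r = 0.67 without pigs 5 and 12. COL1A1 and COL4A2 had r = 0.70 (rho = 0.80, adjusted permutation p = 0.0141 for r and 0.00677 for rho) and r = 0.76 without the same pigs. In the 6 pigs whose Y chromosome counts fit their labels, COL1A1 and COL1A2 and COL6A1 and COL6A3 kept their call (adjusted exact permutation p = 0.0417 for each pair), whereas COL1A1 and COL3A1 had r = 0.42 and no other pair passed.

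Not all partners moved together. COL4A3 and COL4A4, a head-to-head pair on chromosome 15 found mainly in kidney and lung basement membranes, had r = 0.58 (rho = 0.56, adjusted permutation p = 0.0639 for r and 0.0936 for rho). Both were scarce, at 0.674 and 0.197 CPM on average. COL8A1 and COL8A2 had r = 0.39 (rho = 0.12, adjusted permutation p = 0.23 for r and 0.782 for rho). The multiplexins COL15A1 and COL18A1 had r = 0.13 (rho = 0.09, adjusted permutation p = 0.682 for r and 0.782 for rho), and COL4A2 and COL15A1 had r = 0.45 (rho = 0.48, adjusted permutation p = 0.171 for r and 0.153 for rho). COL18A1 was closest to COL4A2 instead, with r = 0.87 over 12 pigs, a pair seen only after all pairs were computed.

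Of the fibrillar chains, COL11A1 stood apart from the rest. Its median r with the 19 other chains was -0.26 and its lowest was -0.64, with COL6A6, while its highest was 0.01, with COL18A1. COL14A1 was loosely tied to the others across all pigs, with a median r of 0.14 and a highest value of 0.36, with COL5A2. With levels centred on the group means, however, its median r was 0.41, beside 0.43 over all pairs of these chains. Its highest value was then 0.61, with COL3A1, so the loose tie of COL14A1 was not seen after centring. Without centring, COL6A3 had the highest median, 0.70, followed by COL5A1 with 0.67 and COL5A2 with 0.65.

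In several pigs most chains lay on the same side of the mean. Pig 12, of the low IMF group, was above the mean log2 CPM of the 12 pigs for 19 of the 20 chains and held the highest value for 9 of them. Pig 5, of the high IMF group, was below the mean for 17 chains and the lowest for 8. Pigs 3 and 10 were also below the mean for 17 chains each, and they belong to different groups. The median deviation over the 20 chains ran from -0.45 in pig 5 to 0.45 in pig 12 on the log2 scale. Pigs 8 and 11 had no joint shift, with 11 chains above and 9 below the mean in pig 8 and the reverse split, 9 above and 11 below, in pig 11. Pig 6 was above the mean for 8 chains and below it for 12, with the highest value of 5 chains and the lowest of 1.

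The level of several chains rose with a contrast between GC-rich and GC-poor genes of the same library. A GC tilt was computed for each library as the median log2 deviation of GC-rich genes (exons of at least 59.8% GC) minus that of GC-poor genes (at most 42.3%), over 9011 genes that are no collagen chains. It ran from -0.42 in pig 3 to 0.37 in pig 7. The tilt is computed from expression values, and whether it arose in the muscle or in library preparation was not tested. The level of COL4A2, with 67.6% GC, had r = 0.85 with this tilt over 12 pigs (rho = 0.80, adjusted permutation p = 0.0096 for r and 0.0169 for rho), and r was 0.84 without pigs 3 and 6 and 0.87 and 0.65 within the high and low IMF groups. COL6A1 (r = 0.84), COL16A1 (r = 0.81), COL5A1 (r = 0.79), COL6A3 (r = 0.77) and COL18A1 (r = 0.71) were the others of the 20 chains that passed the adjustment by r, with adjusted permutation p from 0.0096 to 0.0393, although COL18A1 missed it by rho (rho = 0.67, adjusted permutation p = 0.0577). COL5A3 passed by rho (rho = 0.71, adjusted permutation p = 0.0433) and missed by r (r = 0.62, adjusted permutation p = 0.092). COL1A1 had r = 0.56 (adjusted permutation p = 0.14), COL3A1 r = 0.32 and COL15A1 r = 0.35 (adjusted permutation p = 0.47 for both). Over the 19 chains with a known GC content, the r with the tilt and the GC content had r = 0.69, a correlation across chains, which are not independent replicates.

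Removing the tilt by regression did not remove the joint variation. The median r of the 190 pairs was then 0.444, against 0.001 over all genes. COL1A1 and COL1A2 had r = 0.95 and COL6A1 and COL6A3 r = 0.87 with the tilt removed, both past the adjusted threshold (adjusted permutation p = 0.00012 and 0.00153). COL5A1 and COL5A2 went from r = 0.78 to r = 0.91. COL1A1 and COL4A2, however, came to r = 0.50 and lost their call (adjusted permutation p = 0.125).

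**Figure D3:**
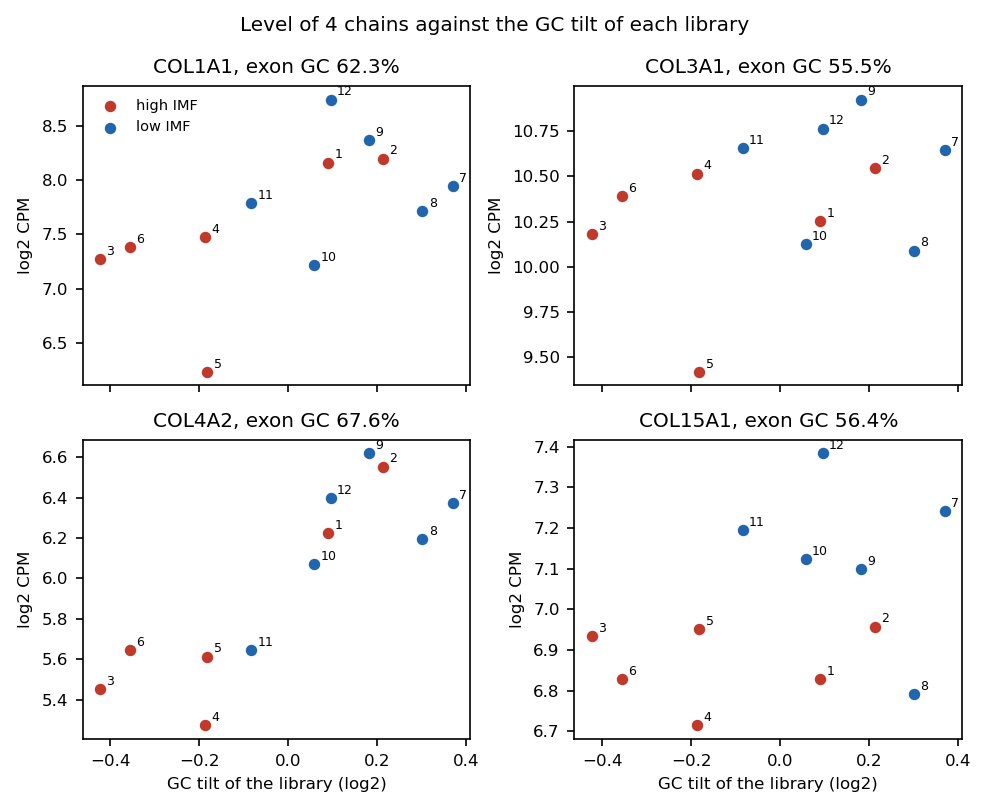
Log2 CPM of COL1A1, COL3A1, COL4A2 and COL15A1 (vertical axes) against the GC tilt of each library on the log2 scale (horizontal axes), with points numbered by pig, red for high and blue for low IMF. COL4A2 climbs with the tilt (r = 0.85), and COL3A1 and COL15A1 do so less (r = 0.32 and r = 0.35).

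Outside the collagens, the genes whose pattern was most like the type I and III chains were sought by r over 12 pigs of log2 CPM centred on the group means. The 5 named genes closest to the mean of COL1A1, COL1A2 and COL3A1 were KIF1A (r = 0.93), a kinesin motor at 0.373 CPM, ADAMTS2 (r = 0.91), PIK3R2 (r = 0.90), a PI3-kinase subunit, CCDC80 (r = 0.90), a secreted matrix protein, and ADAMTS7 (r = 0.89). ADAMTS2 cuts the amino-terminal propeptide from procollagen, and had 18.7 CPM. The 5 closest to COL4A2 were HSPG2 (r = 0.97), which encodes the basement membrane proteoglycan perlecan, UBR4 (r = 0.96), RALGAPA2 (r = 0.96), MYH9 (r = 0.95), a non-muscle myosin, and ANKRD52 (r = 0.95). The r of these latter 5 with the GC tilt ran from 0.65 for MYH9 to 0.91 for RALGAPA2, and that of the former 5 from 0.15 for CCDC80 to 0.52 for ADAMTS2.

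The study compared pigs with low and high IMF to find genes tied to fat deposition in muscle. No collagen chain passed the thresholds used, which ask for an adjusted p of at most 0.05 together with a log2 fold change (log2FC, low over high IMF) past 0.58 in either direction. By edgeR, 0 of the 31 chains tested were called, and so were 0% of the 14262 genes tested, while 1 chain reached an unadjusted p at or under 0.05. DESeq2's Wald test on the same genes called 0.407% of all genes and likewise 0 chains, with 4 chains (12.9%) at an unadjusted p at or under 0.05 beside 11.9% of all genes, and limma-voom called 0 chains with 3 (9.68%) at that level beside 9.98% of all genes. The share of chains at an unadjusted p at or under 0.05 by edgeR was 3.23%, below the 10.4% of all genes tested. None of the 31 chains had groups that did not overlap, against 0.659% of all genes. The adjusted p of the chains ran from 0.427 to 0.999.

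Most chains nevertheless had a higher mean in low IMF pigs. The log2FC was above 0 for 24 of the 31 chains tested, or 77.4%, against 48.4% of all genes, and the chains are not independent of each other. The median log2FC was 0.29 over 9 fibrillar, 0.28 over 7 basement membrane and 0.13 over 15 other chains, against -0.008 over all genes. With the GC tilt as a covariate these medians were 0.03, 0.24 and 0.04, and 19 of the 31 chains were above 0. With the labelled age as a covariate the medians were 0.19, 0.08 and 0.10, and without the 6 pigs whose Y chromosome counts go against their labels they were 0.29, 0.26 and -0.03. The tilt itself averaged -0.14 ± 0.25 in the high and 0.15 ± 0.17 in the low IMF group (SD, n = 6 each, exact permutation p = 0.0455, two-sided).

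COL15A1 was the chain at an unadjusted p at or under 0.05. It encodes a multiplexin of the basement membrane zone of muscle fibres and capillaries. Its lowest, median and highest levels were 105.0, 118.0 and 124.3 CPM in the high IMF group and 110.8, 143.0 and 167.0 CPM in the low IMF group. In the low IMF group, 5 of 6 pigs lay above every high IMF pig, and pig 8 lay among them. The log2FC was 0.28 with a standard error of 0.10 (unadjusted p = 0.0149, adjusted p = 0.427). COL15A1 stayed at an unadjusted p at or under 0.05 under each of the alternatives run and without each pig in turn, and in none of them was it called. With the GC tilt as a covariate the log2FC was 0.30 (unadjusted p = 0.031), and without the 6 pigs it was 0.47 (unadjusted p = 0.0129). The low IMF pigs then left were pigs 11 and 12, at 146.5 and 167.0 CPM, and pig 8 was among those left out. The 4 endothelial markers with a row (PECAM1, CDH5, KDR and TEK), none of them at 0, summed to 92.0 to 123.2 CPM in the high (median 116.5) and 95.3 to 159.0 CPM in the low IMF group (median 136.4). Pig 8, the low IMF pig that lay among the high IMF pigs for COL15A1, was also the low IMF pig with the lowest endothelial sum. Pigs 7, 11 and 12 were high for both, with sums of 159.0, 137.5 and 140.7 CPM and COL15A1 at 151.4, 146.5 and 167.0 CPM. Pigs 1, 4 and 10 paired less closely. Pig 1 had the lowest sum of all, 92.0 CPM, with COL15A1 at 113.7 CPM. Pig 4, the lowest for COL15A1, had a sum of 117.5 CPM. Pig 10 had a sum of 109.4 CPM with COL15A1 at 139.5 CPM. CDH5, an adhesion protein of endothelial junctions, was the 1 of these 4 markers at an unadjusted p at or under 0.05 (log2FC 0.55, unadjusted p = 0.00411). That level was reached by 10.4% of all genes tested. The part of endothelial cells in the COL15A1 value was not tested. COL21A1, a fibril-associated chain, also reached, with the GC tilt as a covariate, an unadjusted p of 0.0246 with a log2FC of 0.43 (0.29 without the covariate and 0.46 without the 6 pigs), making 2 of 31 chains, or 6.45%, against 3.62% of all genes.

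**Figure D4:**
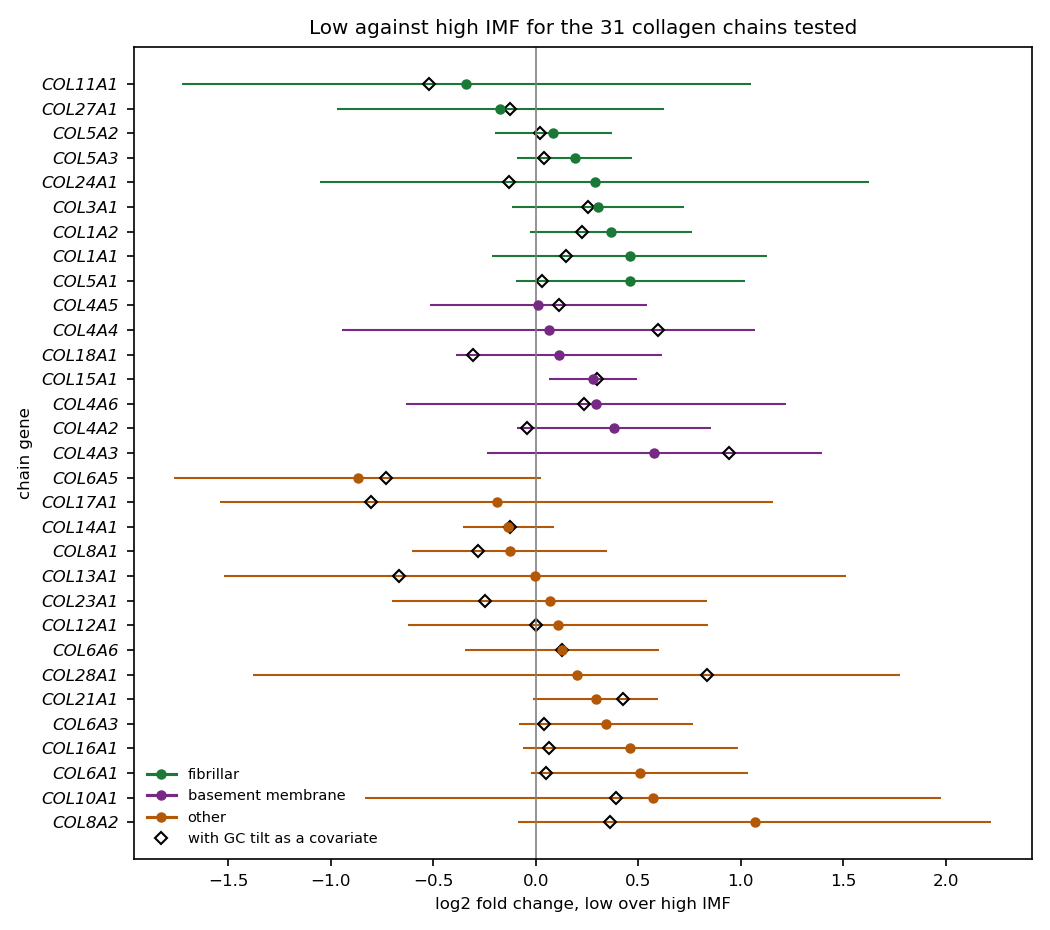
Log2 fold change, low over high IMF, of the 31 collagen chains tested, by class, with 95% confidence intervals of the edgeR fit (filled circles and bars) and the same value with the GC tilt of the libraries as a covariate (open diamonds). The interval of COL15A1 is the one that leaves out 0 before adjustment, and the diamonds of COL1A1, COL4A2, COL5A1 and COL6A1 lie closer to 0 than their circles.

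The type I and III chains overlapped widely between the groups. COL1A1 had lowest, median and highest levels of 75.1, 172.2 and 293.8 CPM in the high and 148.8, 233.7 and 428.2 CPM in the low IMF group. COL1A2 had 242.0, 417.3 and 494.2 CPM in the high and 376.1, 490.3 and 697.9 CPM in the low IMF group. COL3A1 had 684.6, 1281 and 1493 CPM in the high and 1089, 1605 and 1943 CPM in the low IMF group. For all 3 chains the lowest pig was pig 5 of the high IMF group, and the highest was a low IMF pig. Their log2FC were 0.46 ± 0.31 (SE, adjusted p = 0.630), 0.37 ± 0.18 (adjusted p = 0.4995) and 0.30 ± 0.19 (adjusted p = 0.609). With the GC tilt as a covariate they were 0.15, 0.23 and 0.25. Without pig 5 they were 0.29, 0.26 and 0.18, and without pig 12 that of COL1A1 was 0.27.

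Ratios between chains within a library, which need no scaling, did not separate the groups. The log2 ratio of COL1A1 to COL1A2 averaged -1.16 ± 0.38 in the high and -1.03 ± 0.22 in the low IMF group (SD, n = 6 each, adjusted exact permutation p = 0.711). The ratio of COL1A1 to COL3A1 averaged -2.76 ± 0.44 and -2.57 ± 0.33 (adjusted exact permutation p = 0.711). The ratio of COL1A1 to COL4A2 averaged 1.66 ± 0.55 and 1.75 ± 0.44 (adjusted exact permutation p = 0.771).

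Among type V chains, COL5A1 had the largest log2FC of the fibrillar class, 0.46 ± 0.26 (SE, adjusted p = 0.552). Its lowest, median and highest levels were 20.6, 33.2 and 59.2 CPM in the high and 38.1, 54.9 and 65.5 CPM in the low IMF group, so the range of the high group reached well into that of the low group. COL5A2 was at 135.6 ± 25.4 CPM in the high and 143.9 ± 17.5 CPM in the low IMF group (SD, n = 6 each, log2FC 0.09 ± 0.13 SE, adjusted p = 0.860). With the GC tilt as a covariate the log2FC of COL5A1 was 0.03, and without the 6 pigs it was 0.19, with 0.03 for COL5A2. COL11A1 had a log2FC of -0.34 ± 0.65 (SE, adjusted p = 0.893), and its spread within each group, from 1.13 to 18.2 CPM and from 2.24 to 15.2 CPM, was far larger than the difference. The sign rested on pig 1, the pig with the highest level, without which the log2FC was 0.05. It was -0.10 by limma-voom and -0.03 without the 6 pigs.

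In the type IV network, COL4A2 had lowest, median and highest levels of 38.6, 49.5 and 93.9 CPM in the high and 50.04, 78.1 and 98.3 CPM in the low IMF group. All 6 low IMF pigs lay above the median of the high group. The log2FC was 0.38 ± 0.22 (SE, adjusted p = 0.569) and turned to -0.04 with the GC tilt as a covariate, and it was 0.07 without the 6 pigs. COL4A3 had 0.214, 0.471 and 0.944 CPM in the high and 0.463, 0.783 and 1.29 CPM in the low IMF group, with a log2FC of 0.58 ± 0.38 (SE, adjusted p = 0.620), of 0.94 with the GC tilt as a covariate and of 0.26 without the 6 pigs. COL4A4, COL4A5 and COL4A6 had log2FC of 0.06, 0.01 and 0.29 with standard errors of 0.47, 0.25 and 0.43, and each turned negative without 1 or more single pigs, for COL4A6 pig 12. Without the 6 pigs their log2FC were -0.05, 0.59 and 1.09, with pigs 11 and 12 as the low IMF group. Pig 12 was the highest of the 12 pigs for COL4A5 and COL4A6. COL18A1 had a log2FC of 0.11 ± 0.23 (SE, adjusted p = 0.901), -0.31 with the GC tilt as a covariate and -0.19 without the 6 pigs. All 7 basement membrane chains had a log2FC above 0, and with the GC tilt as a covariate COL4A2 and COL18A1 were below it.

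In the type VI filament, COL6A1 had 35.0, 47.5 and 82.7 CPM in the high and 49.4, 75.2 and 101.0 CPM in the low. Its log2FC was 0.51 ± 0.25 (SE, adjusted p = 0.494), 0.05 with the GC tilt as a covariate and 0.28 without the 6 pigs. COL6A3 had 167.7, 234.6 and 367.4 CPM in the high and 260.3, 325.1 and 444.3 CPM in the low IMF group, with a log2FC of 0.34 ± 0.20 (SE, adjusted p = 0.565) and of 0.04 with the covariate. For both chains all 6 low IMF pigs lay above the median of the high group, and the ranges overlapped. COL6A5, at 0.255 ± 0.0932 CPM in the high and 0.139 ± 0.0927 CPM in the low IMF group, had a log2FC of -0.87 ± 0.42 (SE, adjusted p = 0.490). COL8A2, a chain of short-chain networks, had the largest log2FC of the 31 chains, 1.07 ± 0.54 (SE, adjusted p = 0.502), with 0.103, 0.480 and 1.01 CPM in the high and 0.507, 0.605 and 1.98 CPM in the low IMF group. It was 0.36 with the GC tilt as a covariate (unadjusted p = 0.56), below the 0.94 of COL4A3. COL8A1 had a log2FC of -0.13 ± 0.22 (SE, adjusted p = 0.878). COL14A1 was at 595.1 ± 44.2 CPM in the high and 542.4 ± 73.5 CPM in the low IMF group (SD, n = 6 each), with a log2FC of -0.13 ± 0.10 (SE, adjusted p = 0.674), and of -0.08 without the 6 pigs.

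Genes that make, assemble, bind or break down collagen were taken from 7 lists. Of their 77 genes, 66 were tested, 0 were called, and 12 had an unadjusted p at or under 0.05, all of them higher in the low IMF group. That is 18.2% of the genes tested, against 10.4% of all genes in either direction. For this direction alone, which was not fixed beforehand, the share of all genes was 5.38%. With the GC tilt as a covariate 1 of the 66 (1.52%) remained, P4HA2, against 3.62% of all genes in either direction and 1.76% in this one. The log2FC was above 0 for 46 of the 66 without the covariate, beside 48.4% of all genes, and for 39 with it. The medians were 0.14 and 0.05.

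Of the 18 folding and modification genes tested, 4 reached an unadjusted p at or under 0.05, beside 10.4% of all genes tested. MIA3, which loads procollagen into transport carriers at the endoplasmic reticulum, was at 42.3 ± 5.12 CPM in the high and 54.5 ± 5.67 CPM in the low IMF group (SD, n = 6 each), with a log2FC of 0.37 ± 0.10 (SE, adjusted p = 0.367). The others were FKBP10 (log2FC 0.34), a chaperone of procollagen, and P4HB (0.31) and P4HA2 (0.44), subunits of prolyl 4-hydroxylase. P4HA1, the other main catalytic subunit, had a log2FC of -0.26 ± 0.16 (SE, adjusted p = 0.586). Over the 18 genes the log2FC was above 0 for 13 and below 0 for 5. Of the 8 propeptide processing genes none reached this level, and 4 of 8 had a log2FC above 0. Of the 5 cross-linking enzymes LOXL2 did (log2FC 0.54 ± 0.22 SE, adjusted p = 0.441).

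Of the 12 fibril partners tested, 3 had an unadjusted p at or under 0.05, beside 10.4% of all genes tested. FMOD, a small proteoglycan that binds type I fibrils, had a log2FC of 0.83 ± 0.33 (SE, adjusted p = 0.441), THBS4, a matrix protein of tendon and muscle attachment, 0.56 ± 0.24 (SE, adjusted p = 0.452) and TNXB, tenascin X, 0.56 ± 0.26 (SE, adjusted p = 0.473). FMOD and THBS4 are also markers of tendon, and the 6 tendon markers summed to 30.2 to 78.9 CPM in the high and 52.6 to 139.7 CPM in the low IMF group, highest in pig 12. None of the tendon markers with a row was at 0 in all pigs, and their part in the collagen values was not tested. The summed tendon level had r = 0.23 with the mean of the type I and III chains after centring on the groups, and that of the 7 fibro-adipogenic markers r = 0.44. Fibro-adipogenic markers summed to 376.5 to 568.9 CPM in the high and 428.4 to 556.1 CPM in the low IMF group, highest in pig 6 and lowest in pig 5.

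All 10 basement membrane partners tested had a log2FC above 0, beside 48.4% of all genes. Their median was 0.33, and with the GC tilt as a covariate it was 0.03, with 6 of 10 above 0. NID1, nidogen, which links laminin to type IV collagen, was at 57.7 ± 9.42 CPM in the high and 76.0 ± 8.07 CPM in the low IMF group (SD, n = 6 each), with a log2FC of 0.40 ± 0.12 (SE, adjusted p = 0.413). The laminin chains LAMB2 and LAMC1 had log2FC of 0.40 ± 0.12 and 0.26 ± 0.11 (SE, adjusted p = 0.419 and 0.446). The endothelial marker sum, also higher in its median in the low IMF group (136.4 against 116.5 CPM), is given beside these values, and its part in them was not tested. Among the 10 receptors tested MRC2, which takes up collagen for breakdown, had an unadjusted p at or under 0.05 (log2FC 0.42 ± 0.19 SE, adjusted p = 0.463). Of 8 degradation genes 3 were tested, MMP2, MMP14 and FAP, and none reached that level.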

How the data were processed

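Stranded libraries of polyadenylated RNA from 12 Semimembranosus samples were sequenced as paired reads of 100 bases. The authors trimmed reads with Trimmomatic, aligned them to Sscrofa11.1 with HISAT2, used StringTie and HTSeq, and deposited counts per Ensembl gene and pig, whole numbers that are not normalized. The annotation release, strand option and treatment of reads with several alignments are not given in the sources used here, so overlapping genes and near-identical copies are uncertain.

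The name table gave symbols to 14857 of 25880 genes. Genes kept by filterByExpr were normalized by TMM and compared in edgeR 4.0.16 (R 4.3.3) by its quasi-likelihood test, without covariates, and p-values were adjusted by Benjamini-Hochberg over 14262 genes. DESeq2 1.42.0 and limma 3.58.1 were alternatives, and the common biological coefficient of variation was 0.332. Log2 CPM used a prior count of 2. Correlations used 100000 resamples and group differences all 924 arrangements (Python 3.11.15, numpy 2.4.6, scipy 1.17.1), two-sided. The study chose its pigs while avoiding full and half-sibs, which the labels do not say. The p-values of the group comparison set the group difference against the spread between these pigs. Exon lengths and GC content are unions of RefSeq exons matched by symbol, which gave 37 of 38 chains a position and a length for all but COL6A1. Tests were tried on simulated data.

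Members and lists were chosen with earlier results of these data known. Named chains are those of 12 pairs of partner chains, the 5 highest per length, those at an unadjusted p at or under 0.05, the 2 per class with the largest log2FC, those with an outlying pig and those removed by the filter; list genes are those at an unadjusted p at or under 0.05. COL5A3, COL11A1, COL12A1, COL16A1, COL21A1, HSPG2 as a list gene, P4HA1 and the chains of the closing observations were added after their values were seen. So were the pairs and ratio with COL4A2, in place of COL4A1, and the GC and length tilt. Of 13 pairs and 5 ratios fixed, 10 and 2 had both chains.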

Additional observations from a re-analysis of the deposited data

Results flagged for a closer look

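Among 68 sets of 6 pigs (the chains with counts in each group), 5 held a pig far from the other 5 by Dixon's criterion, whose critical value for 6 samples is 0.625, and chance gives about 1 in 20 such sets. In the low IMF group, 3 of the 5 concern pig 12, the pig with the highest collagen levels. COL8A1 was at 21.2 CPM there, with the next pig at 14.9 CPM. COL4A5 was at 8.06 CPM there and at 4.09 CPM in the next pig, and COL4A6, its neighbour on the X chromosome, at 2.16 CPM and 0.933 CPM. In the high IMF group COL4A4 was at 0.444 CPM in pig 4 and at 0.214 CPM in the next pig. COL6A5 was at 0.320 CPM in pig 8 of the low IMF group and at 0.144 CPM in the next pig.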

How the results depend on the processing

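No collagen chain was called under any of the alternatives run (upper-quartile or DESeq2 scaling, limma-voom, the Wald test of DESeq2, other filters, labelled sex, labelled age, GC tilt or length tilt as a covariate, without the 6 pigs whose Y chromosome counts go against their labels, and each pig left out). In the main analysis 1 chain had an unadjusted p at or under 0.05 (3.23% of chains, against 10.4% of all genes). The number was 4 by DESeq2 on the same genes (12.9%, against 11.9%). It was 6 by DESeq2 on all genes with at least 1 count (17.1%, against 9.02%). By limma-voom it was 3 (9.68%, against 9.98%), and 2 with all genes with at least 1 count (5.71%, against 10%). With labelled sex it was 3 (9.68%, against 10.4%) and with labelled age 2 (6.45%, against 9.79%). It was 2 with the GC tilt (6.45%, against 3.62%) and 2 with the length tilt (6.45%, against 9.99%). Without the 6 pigs it was 3 (9.38%, against 4.05%). With single pigs left out the number ran from 1 to 8. It was 8 without pig 2 (25.8% of chains, against 14.3% of all genes) and 5 without pig 1 (16.1%, against 11.6%). Without pig 8, 10 or 11 it was 3 (9.68%, against 8.27%, 10.1% and 10.9%, in this order). Without pig 6 it was 2 (6.45%, against 7.26%). Without any other single pig it was 1 (3.23%, against 8.16% to 9.59%).

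The log2FC reversed for COL4A2 with the GC tilt (-0.041), for COL4A4 with labelled age (-0.27) and without the 6 pigs (-0.049), for COL4A5 by limma-voom (-0.10), with labelled age (-0.10) and with the length tilt (-0.039), and for COL18A1 without the 6 pigs (-0.19) and with the GC tilt (-0.31). With single pigs left out it ran from -0.77 to 0.054 for COL11A1, above 0 without pig 1, from -0.17 to 0.49 for COL4A4, from -0.29 to 0.14 for COL4A5 and from -0.20 to 0.50 for COL4A6. Centred on the groups, r was 0.62 for COL4A3 and COL4A4 (adjusted permutation p = 0.0418) and -0.0030 for COL15A1 and COL18A1. With the GC tilt regressed out, these were 0.65 (adjusted permutation p = 0.0365) and -0.18, and COL1A1 and COL4A2 had r = 0.50. Without the 6 pigs, r was 0.42 for COL1A1 and COL3A1, 0.89 for COL1A1 and COL5A1, 0.54 for COL5A1 and COL5A2, 0.81 for COL4A5 and COL4A6, 0.88 for COL1A1 and COL6A1 and 0.85 for COL1A1 and COL4A2, none past the adjusted threshold with 6 pigs left. With single pigs left out, r ran from -0.11 to 0.70 for COL8A1 and COL8A2, from 0.49 to 0.64 for COL4A3 and COL4A4, from 0.72 to 0.88 for COL4A5 and COL4A6 and from -0.0058 to 0.32 for COL15A1 and COL18A1, and the log2 difference in the ratio of COL1A1 to COL4A2 from -0.12 to 0.21. Causes were not tested. No paired analysis was possible because the groups share no replicate number. Depth, at 131048805 counts or more, limits the chains under 1 CPM.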

Other observations

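Several chains not yet described were scarce in this muscle, whereas COL5A3 of type V, at 34.1 CPM on average, and COL6A6 of type VI, at 24.7 CPM, were not. Of the transmembrane chains, COL17A1, a chain of the anchoring plaques of epithelia, averaged 0.411 CPM and ranged 17.9-fold between pigs, COL23A1 averaged 0.642 CPM and COL13A1, found at the neuromuscular junction, 0.175 CPM. COL10A1, a chain of growth plate cartilage, averaged 0.210 CPM and was at 0 in pig 3. Of the minor fibrillar chains, COL27A1 averaged 1.01 CPM and COL24A1 0.116 CPM. COL28A1 averaged 0.188 CPM. COL12A1, a fibril-associated chain, was at 43.3 CPM on average and ranged from 16.6 CPM in pig 3 to 83.5 CPM in pig 6, and both pigs are of the high IMF group.

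A second tilt, between genes with long exon unions (at least 7154 bases) and short ones (at most 1995 bases), averaged -0.03 ± 0.13 in the high and 0.03 ± 0.16 in the low IMF group (SD, n = 6 each, exact permutation p = 0.517). The level of COL18A1 had r = 0.84 with this tilt over 12 pigs and that of COL4A2 r = 0.76, given here as a description.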
